A study of Mus musculus with 2 samples.

Results

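Blood clotting at the vessel wall depends on genes that endothelial cells (ECs) use to start, carry or restrain coagulation. The 8 genes described here were taken by name from the 28380 genes listed in either library: the clot-promoting F8, Vwf and F3, the inhibitors Tfpi and Tfpi2, the protein C pathway receptors Thbd and Procr, and the fibrinolytic enzyme gene Plat. All 8 had UMIs in kept cells of both libraries. Single-cell RNA sequencing (scRNA-seq) of femur and tibia at postnatal day 30 gave 1 Control and 1 Dach1OE library, each pooled from 2 C57BL/6 mice, a male and a female. In Dach1OE mice, Cre-ERT2 driven by Aplnr (Apj), a receptor gene of capillary ECs, was activated with tamoxifen to express Dach1 from a Rosa26 transgene. Control littermates carried the transgene without Cre and also received tamoxifen. Blood-lineage cells and cells with CD45 or CD117 had been depleted, so blood cell classes here are what escaped that depletion.

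Coagulation starts when tissue factor, the product of F3, meets blood outside the vessel, and it is amplified by thrombin. Factor VIII (F8) is a cofactor of that amplification and circulates bound to von Willebrand factor (Vwf), which tethers platelets and is stored in ECs and megakaryocytes. ECs restrain the cascade with tissue factor pathway inhibitor (Tfpi) and its relative Tfpi2, and with thrombomodulin (Thbd) and the endothelial protein C receptor (Procr), which turn thrombin towards activation of protein C. Tissue-type plasminogen activator (Plat) starts the breakdown of fibrin. Sinusoids are wide, leaky capillaries of marrow and liver, and the ECs of liver sinusoids are a known source of factor VIII.

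The libraries held 143986818 and 166999989 UMIs in 28720 and 32028 cells, of which 26466 Control and 29317 Dach1OE cells had 500 to 6000 genes and under 25% mitochondrial UMIs. Cell classes were gated by marker panels that hold none of the 8 genes. The endothelial gate held 9249 Control and 9463 Dach1OE cells with median depths of 2802 and 2798 UMIs, and a median of 7 of the 8 endothelial panel markers was detected per cell in both libraries. Levels are given as CPM, the UMIs of a gene summed over the cells of a class and scaled to the same total in every class. Dach1 was 5.52 CPM in Control ECs and 196 CPM in Dach1OE ECs, and 38.2% of Dach1OE ECs had a Dach1 UMI against 1.67% of Control ECs, which is the direction that the labels give. Transgene and endogenous Dach1 UMIs cannot be told apart. Of the cell indices, 1049 were listed in both libraries, and without them the log2 ratio of Vwf between the libraries was 2.61 and that of F8 was -1.71 in ECs, beside 2.60 and -1.70 with them. There was no replicate library and hence no test, and all intervals are 95% intervals that cover counting error only.

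The genes lie on 5 mouse chromosomes in the GENCODE vM21 annotation of GRCm38. F8 spans X:75172715-75382615 on the minus strand and overlaps 3 other annotated genes, Gm8522 on its own strand and Gm6039 and Fundc2 on the other. Vwf spans 6:125546774-125686679 and F3 spans 3:121723537-121735048, both on the plus strand. Tfpi (2:84432855-84476775), Tfpi2 (6:3962595-3988919) and Thbd (2:148404466-148408188) lie on the minus strand, and Procr (2:155751117-155755471) and Plat (8:22757727-22782844) on the plus strand. Only F8 of the 8 overlaps another gene, and intronic reads were counted, so reads from the overlapping genes could enter its value.

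RefSeq (GRCm38.p6) promoter windows, 250 bases before to 50 after a start site, were available for 5 of the genes. Shown first are windows of F8, Tfpi and Tfpi2, the 3 members that lay more than 2-fold lower in Dach1OE ECs, and then that of Procr, whose level hardly moved. Capitals mark GGAA or its complement TTCC, the core that ETS factors, a family central to endothelial genes, can bind.
F8, chrX:75379992-75380291, minus strand: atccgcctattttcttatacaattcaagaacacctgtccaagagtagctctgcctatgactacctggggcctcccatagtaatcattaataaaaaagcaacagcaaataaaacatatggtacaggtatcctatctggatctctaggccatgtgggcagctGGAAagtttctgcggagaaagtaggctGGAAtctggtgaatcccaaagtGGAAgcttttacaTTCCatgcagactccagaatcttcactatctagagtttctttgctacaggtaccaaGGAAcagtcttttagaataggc
Tfpi, chr2:84476710-84477009, minus strand: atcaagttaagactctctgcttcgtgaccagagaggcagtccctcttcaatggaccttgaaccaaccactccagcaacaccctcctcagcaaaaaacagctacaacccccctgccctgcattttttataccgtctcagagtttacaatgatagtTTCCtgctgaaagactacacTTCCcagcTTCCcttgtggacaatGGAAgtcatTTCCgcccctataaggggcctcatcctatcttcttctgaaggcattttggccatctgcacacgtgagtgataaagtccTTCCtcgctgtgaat
Tfpi2, chr6:3968326-3968625, minus strand: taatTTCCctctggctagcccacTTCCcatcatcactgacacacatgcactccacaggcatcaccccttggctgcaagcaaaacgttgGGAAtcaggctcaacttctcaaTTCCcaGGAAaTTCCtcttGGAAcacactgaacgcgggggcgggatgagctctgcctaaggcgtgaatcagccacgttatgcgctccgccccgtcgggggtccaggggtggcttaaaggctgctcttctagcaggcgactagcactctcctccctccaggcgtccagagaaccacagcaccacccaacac
Procr, chr2:155750967-155751266, plus strand: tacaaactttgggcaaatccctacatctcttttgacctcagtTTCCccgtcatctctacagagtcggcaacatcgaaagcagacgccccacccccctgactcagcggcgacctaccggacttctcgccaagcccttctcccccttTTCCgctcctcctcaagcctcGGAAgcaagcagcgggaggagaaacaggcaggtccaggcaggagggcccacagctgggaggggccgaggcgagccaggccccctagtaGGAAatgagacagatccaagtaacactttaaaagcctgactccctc
The core occurred 5 times in the F8 window, 6 times in that of Tfpi, 7 times in that of Tfpi2 and 4 times in that of Procr, counted on both strands. At least 1 such core was present in 96.0% of the 32851 RefSeq promoter windows, so its presence sets none of them apart. The KLF core CACCC was found on either strand in the windows of Tfpi (1 match), Tfpi2 (3) and Procr (1) and not in that of F8, and 57.5% of all windows hold it. The GATA motif AGATAA was in none of these 4 windows (11.2% of all windows), nor was the FOX motif TGTTTAC (3.65%). The F8 and Tfpi windows were poor in CG pairs, with 2 and 5, against a median of 7 over all windows and 12 and 13 in those of Tfpi2 and Procr. The F8 and Tfpi2 windows shown lie inside the spans that GENCODE gives these genes, away from the annotated starts. RefSeq lists another start for Tfpi, whose window had 4 ETS cores, 3 CG pairs, 1 KLF core and 1 GATA match. For Tfpi2 it lists 2 more windows, which cover the annotated start. These had 2 ETS cores and 2 CG pairs each, and 0 and 2 KLF cores. The Tfpi2 window shown was chosen after the core counts were seen, and its CG count does not hold for the others.

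Among the cell classes of bone, 7 of the 8 genes were higher in ECs than in the other gated cells pooled, though not all were higher than in each single class. In both libraries F8, Vwf, Tfpi, Tfpi2, Thbd, Procr and Plat were at least 1.5-fold higher in ECs than in all other gated cells together, 7 of 8 in each library, where 27.3% of all tested genes passed that mark in Control and 31.0% in Dach1OE. Tfpi stood furthest apart in Control, at 2370.4 CPM in ECs and 41.4 CPM in the other cells, a 57.3-fold difference (interval 55.4 to 59.3). Plat stood apart least, with 2.56-fold in Control (2.31 to 2.84) and 5.85-fold in Dach1OE (5.38 to 6.36). Of all F8 UMIs in kept Control cells, 85.0% lay in ECs, which were 34.9% of the cells. The share was similar for Tfpi (86.7%), Thbd (84.3%) and Tfpi2 (83.6%), and smaller for Procr (64.3%), Vwf (51.4%) and Plat (33.1%).

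**Figure D1:**
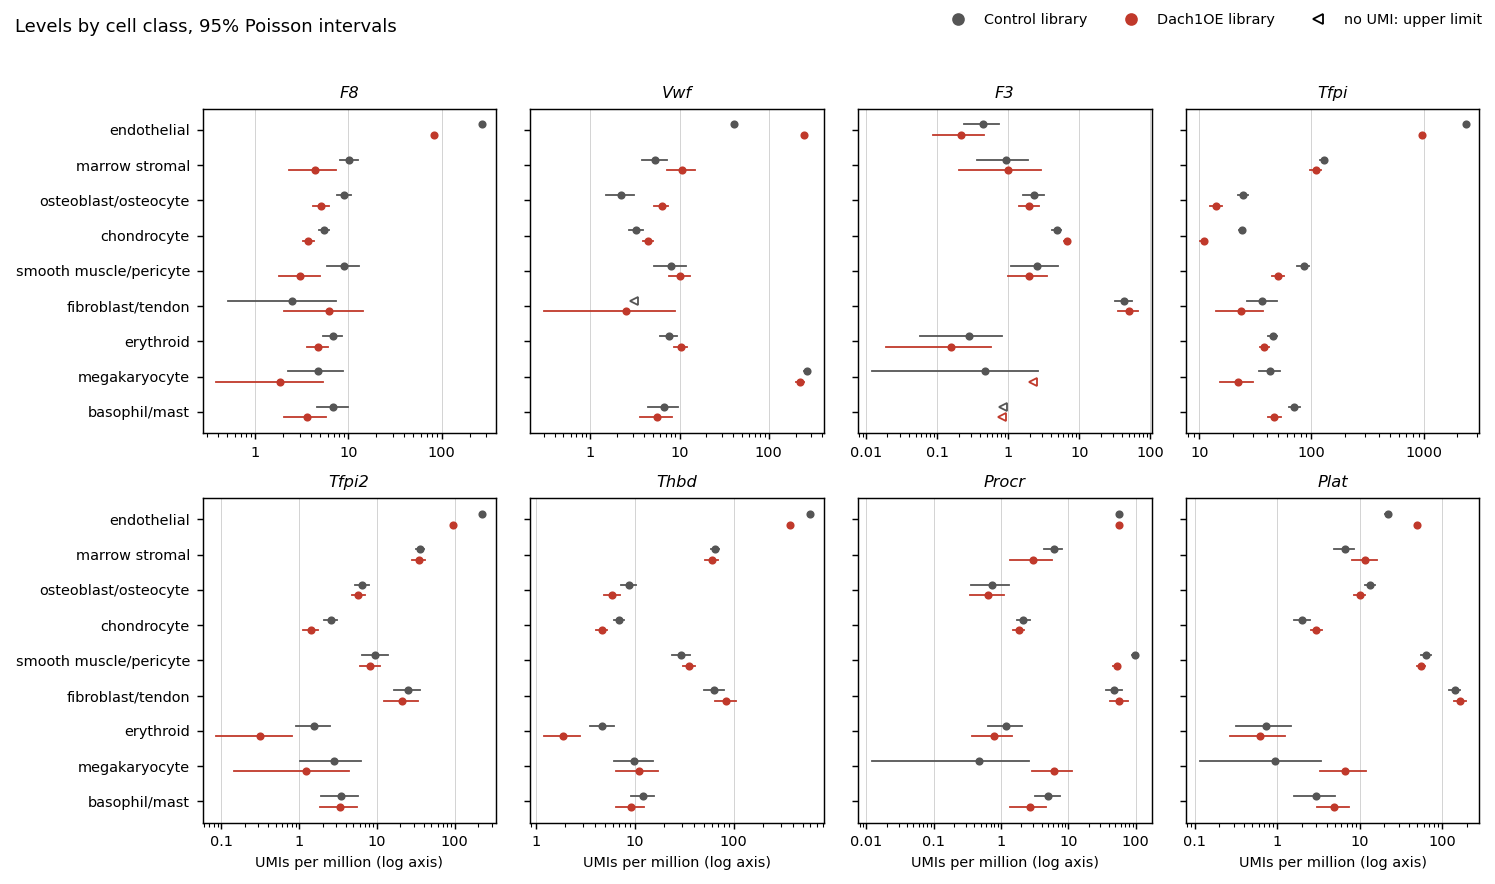
Level of each gene in CPM (log axis, a separate axis per gene) in 9 cell classes of the Control (grey) and Dach1OE (red) libraries; bars are exact 95% Poisson intervals and open triangles are upper limits where there was no UMI. ECs lie highest for F8, Tfpi, Tfpi2 and Thbd in both libraries. Megakaryocytes lie above ECs for Vwf in Control, and F3 is highest in fibroblast or tendon cells.

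F3 was the exception. It was detected in ECs by 14 UMIs in Control and 7 in Dach1OE, and a UMI was seen in 0.141% and 0.0740% of them. Erythroid cells, which should lack the gene, had shares of 0.224% and 0.136% at median depths of 7461 and 8316.5 UMIs. On the CPM scale ECs had 0.439 (interval 0.240 to 0.737) and 0.219, and erythroid cells 0.277 (0.0572 to 0.810) and 0.157, so F3 in ECs was not above the background. F3 reached 42.4 CPM (interval 31.5 to 55.7) in fibroblast or tendon cells of Control and 49.7 CPM in those of Dach1OE, and chondrocytes, with 4.83 and 6.77 CPM, held 42.1% and 62.4% of its UMIs. Megakaryocytes carried Vwf at 269.3 CPM in Control and 222.6 CPM in Dach1OE, beside 41.2 and 249.5 CPM in ECs as a whole. Plat was higher in fibroblast or tendon cells (144 CPM in Control, 165 CPM in Dach1OE) and in smooth muscle cells or pericytes (64.5 and 55.7 CPM) than in ECs as a whole (21.9 and 50.1 CPM). For Procr, the smooth muscle and pericyte class stood at 97.7 CPM (Control) and 52.1 CPM (Dach1OE), beside 55.8 and 56.9 CPM in ECs. Outside ECs, Thbd was found in fibroblast or tendon cells (64.0 and 83.3 CPM) and marrow stromal cells (64.9 and 60.3 CPM), and Tfpi in marrow stromal cells (128 and 109.5 CPM). Classes that should lack a gene give a rough guide to the level of free RNA. Erythroid cells, which should lack Tfpi, carried it at 45.3 and 38.1 CPM, and 3.89% and 3.87% of them had a Tfpi UMI once each cell was thinned to 1000 UMIs, against 70.6% and 45.6% of ECs. Some low levels outside ECs moved with the endothelial ones: Tfpi in chondrocytes was 24.2 CPM in Control against 10.9 CPM in Dach1OE, and Vwf in osteoblasts or osteocytes was 2.18 and 6.28 CPM. The erythroid level of Tfpi, 45.3 and 38.1 CPM, moved less than that of chondrocytes. Whether these low levels are free RNA was not tested.

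Within the endothelium the genes divided into patterns that differed by vessel type. ECs were gated into sinusoidal cells of the marrow (bmECs, type L), metaphyseal capillary cells (mpECs, type H), arterial cells (aECs), cells of remodelling bone (rECs, type R), proliferating cells (pECs), tip-like cells, Scgb3a1-positive cells and lymphatic cells. In Control these gates held 3722, 1160, 348, 359, 420, 205, 13 and 143 cells, and in Dach1OE 806, 1051, 1001, 402, 637, 362, 1576 and 53. The remaining 31.1% and 37.8% of ECs had no clear subtype. Levels are given only for gates of at least 50 cells, so the Scgb3a1-positive gate has a value in Dach1OE alone. The number of cells in each gate depends on markers that can change with Dach1 and is given for the depth behind the values.

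F8, the cofactor gene, was a sinusoidal gene in both libraries. It stood at 401 CPM in sinusoidal cells of Control and 345 CPM in those of Dach1OE, and 68.1% and 55.8% of these cells had an F8 UMI. Lymphatic cells came next with 155 and 161 CPM, a level that in Control did not differ beyond counting error from tip-like (142 CPM), proliferating (131 CPM) and metaphyseal cells (126 CPM) in the order of levels. Remodelling (41.5 CPM) and arterial cells (27.0 CPM) were lowest and not apart from each other. In Dach1OE the order was the same at the top and the bottom, with Scgb3a1-positive cells (66.3 CPM) level with metaphyseal cells (65.5 CPM). In Dach1OE arterial (8.74 CPM, interval 5.98 to 12.3) and remodelling cells (10.8 CPM, 5.73 to 18.4) F8 was low, on 32 and 13 UMIs, beside 4.71 CPM (3.59 to 6.06) in erythroid cells. Erythroid cells were deeper, with a median of 8316.5 UMIs against 2981 and 2552, and held 60 F8 UMIs in 1472 cells. The 2 gates held 1001 and 402 cells, so F8 per cell was not above the erythroid level. Smooth muscle cells or pericytes, with a median of 2058 UMIs, held fewer F8 UMIs per cell, 17 in 2287 cells. Whether F8 in the 2 gates is above background thus depends on the class taken as background. Sinusoidal cells made up 40.2% of Control ECs and held 64.1% of their F8 UMIs.

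Tfpi and Thbd, an inhibitor of the tissue factor pathway and a receptor that turns thrombin against clotting, had the same leading subtype. Tfpi was 3715 CPM in sinusoidal cells of Control and 3093 CPM in those of Dach1OE, and 99.1% and 97.3% of these cells carried its UMIs. It was 1663 CPM in lymphatic, 1025 CPM in proliferating, 781 CPM in metaphyseal and 706 CPM in tip-like cells of Control, each step beyond counting error. Arterial (309.7 CPM) and remodelling cells (295 CPM) were lowest and not apart. Thbd was 825 and 709 CPM in sinusoidal cells, followed in Control by lymphatic (437 CPM), metaphyseal (345 CPM) and remodelling cells (321 CPM), and in Dach1OE by Scgb3a1-positive cells (602 CPM).

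Tfpi2, which encodes an inhibitor of several serine proteases in the matrix, led in metaphyseal capillaries instead. It was 379 CPM in metaphyseal, 265 CPM in tip-like, 211 CPM in proliferating and 192 CPM in sinusoidal cells of Control, of which the latter pair did not differ beyond counting error. Arterial (43.6 CPM) and remodelling cells (36.3 CPM) were again low. In Dach1OE metaphyseal cells were again first with 211 CPM, and sinusoidal cells followed with 171 CPM. Arterial cells of Dach1OE were lowest with 9.01 CPM.

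Vwf, the platelet tether, was highest in remodelling-bone ECs. In Control it was 778 CPM (interval 723 to 836) in rECs, which were 3.88% of ECs and held 57.1% of all endothelial Vwf UMIs. Arterial cells came second with 76.8 CPM, a difference of 10.1-fold, and sinusoidal cells had 7.06 CPM. Erythroid cells of the same library, which should lack Vwf, had 7.58 CPM (interval 6.03 to 9.41), and 5.61% of them had a Vwf UMI. The Control levels of sinusoidal (5.73 to 8.62 CPM), metaphyseal (9.20 CPM, 6.33 to 12.9) and lymphatic cells (3.52 CPM) are not above that and are read as background. A Vwf UMI was found in 71.6% of Control rECs and 13.5% of arterial cells. In Dach1OE rECs were still first with 743 CPM, and arterial cells (469 CPM), Scgb3a1-positive cells (273.9 CPM) and tip-like cells (241 CPM) followed, each step beyond counting error. Cells of the rEC gate then held 11.3% of endothelial Vwf UMIs while making up 4.25% of ECs, and arterial cells held 21.5%.

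Procr shared the remodelling peak and Plat the arterial one. Procr, the receptor that presents protein C for activation, was 166 CPM in rECs of Control and 134 CPM in those of Dach1OE, ahead of metaphyseal cells with 81.7 and 81.3 CPM. Below rECs no neighbours in the Control order were apart, from metaphyseal through arterial (58.5 CPM) to proliferating (44.4 CPM), lymphatic (44.1 CPM) and sinusoidal cells. Plat was 109.9 CPM in arterial cells of Control and 121 CPM in those of Dach1OE. Tip-like (76.9 CPM) and metaphyseal cells (57.4 CPM) came next in Control, each step beyond counting error. Sinusoidal cells were low, at 1.31 CPM in Control and 3.56 CPM in Dach1OE on 18 and 9 UMIs, beside 0.739 and 0.628 CPM in erythroid cells.

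**Figure D2:**
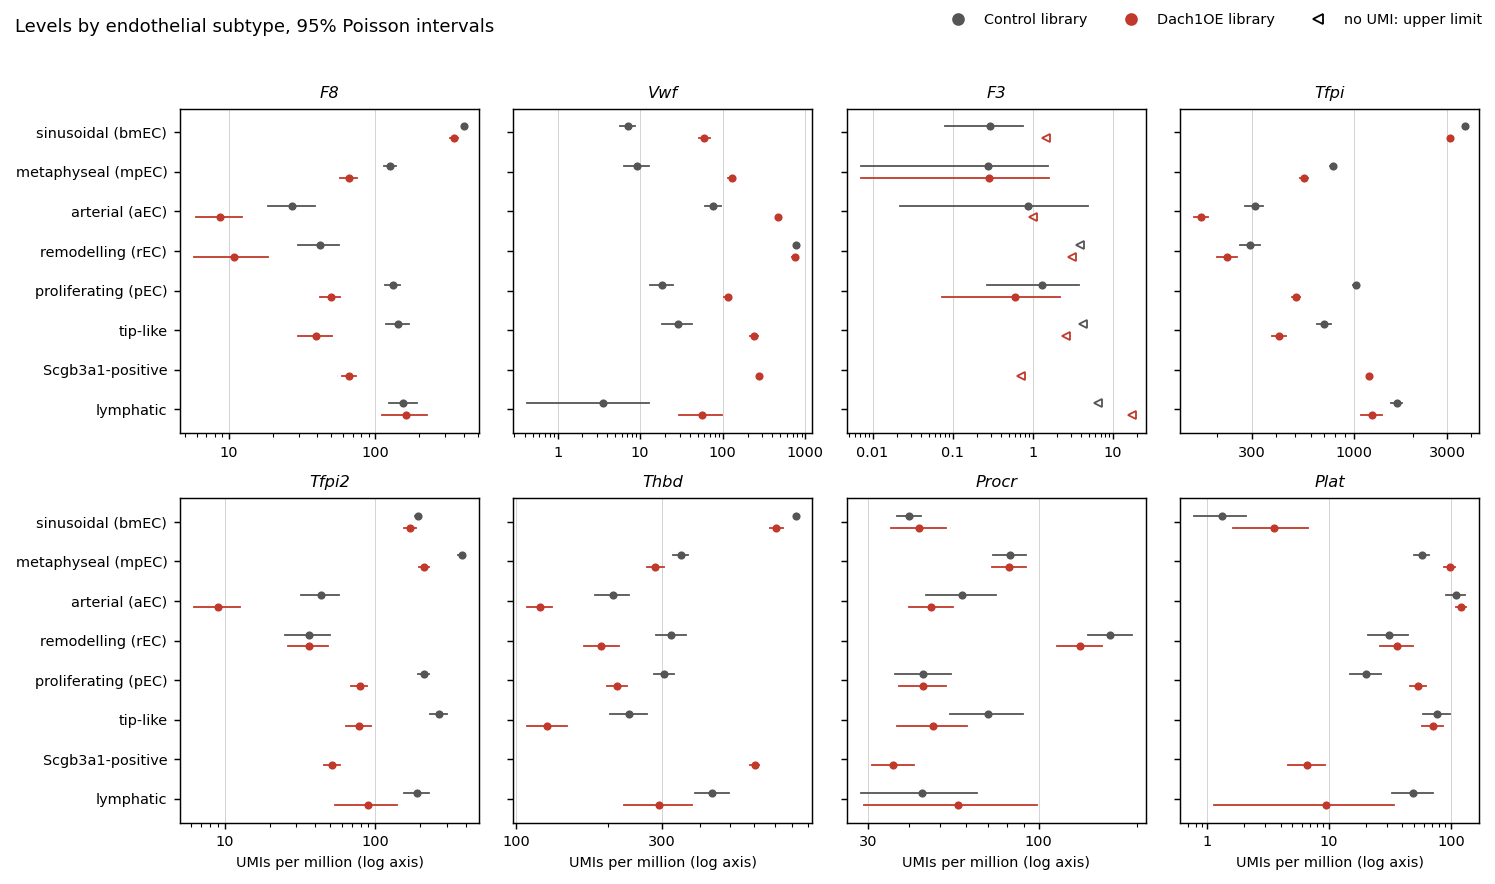
Level of each gene in CPM (log axis, a separate axis per gene) in 8 gated endothelial subtypes of the Control (grey) and Dach1OE (red) libraries, with exact 95% Poisson intervals; open triangles are upper limits without a UMI, and the Scgb3a1-positive gate is drawn for Dach1OE only. F8, Tfpi and Thbd are highest in sinusoidal cells, Tfpi2 in metaphyseal cells, Vwf and Procr in remodelling cells and Plat in arterial cells of both libraries.

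Between the libraries, Vwf was much higher, and F8 and the inhibitors Tfpi and Tfpi2 were lower, in Dach1OE ECs. Of the 7 members with at least 50 UMIs in ECs, Vwf and Plat were at least 1.5-fold higher in Dach1OE and F8, Tfpi, Tfpi2 and Thbd at least 1.5-fold lower, and Procr was within that range. Over all 13930 genes tested in ECs, 7.19% were that much higher and 6.54% that much lower, and the median log2 ratio of all genes was 0.03. F3 had too few UMIs to be compared.

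Vwf was 41.2 CPM in Control ECs and 249.5 CPM in Dach1OE ECs, 6.06-fold higher (interval 5.71 to 6.42), rank 57 from the top among the 13930 genes. With only cells under 10% mitochondrial UMIs its log2 ratio was 3.23 in place of 2.60, on 642 of the 1314 Control and 5965 of the 7976 Dach1OE UMIs. Plat was 21.9 CPM in Control against 50.1 CPM in Dach1OE, 2.28-fold higher (2.09 to 2.50). F8 was 269.6 CPM in Control against 83.1 CPM in Dach1OE, 3.25-fold lower (3.11 to 3.39), rank 64 from the bottom. These are a pair of carrier and cofactor, since factor VIII circulates on von Willebrand factor, and their messages moved in opposite directions. Tfpi went from 2370.4 to 957 CPM, 2.48-fold lower (2.44 to 2.51), and Tfpi2 from 221 to 94.2 CPM, 2.35-fold lower (2.25 to 2.46). Thbd had the smallest of these differences, 589 CPM against 377 CPM, 1.56-fold (1.53 to 1.60). Procr was 55.8 and 56.9 CPM with a ratio of 1.02 (0.955 to 1.09), an interval that leaves out a change of 1.5-fold in these libraries.

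The share of ECs with a UMI showed the same contrast. A Vwf UMI was found in 6.38% of Control and 38.3% of Dach1OE ECs, and an F8 UMI in 47.9% and 18.3%. After each cell was thinned to 1000 UMIs, which left out 228 and 295 shallower ECs, the shares were 3.70% and 19.6% for Vwf and 23.1% and 7.52% for F8. Cells with 5 or more Vwf UMIs were 0.681% of Control and 3.51% of Dach1OE ECs. Cells with 5 or more Tfpi UMIs made up 53.7% of Control and 22.9% of Dach1OE ECs.

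These differences over all ECs combine what happened inside each subtype with how many ECs each gate held. The sinusoidal gate, where F8, Tfpi and Thbd are highest, took 40.2% of Control and 8.52% of Dach1OE ECs. When the 7 subtypes gated in both libraries were given equal weight, the log2 ratio of F8 was -0.59 in place of -1.70, that of Tfpi -0.46 in place of -1.31, that of Thbd -0.46 in place of -0.65 and that of Plat 0.18 in place of 1.19. Tfpi, Thbd and Plat were then within 1.5-fold. Vwf (0.98) and Tfpi2 (-0.96) kept their direction and stayed past it. The comparison within subtypes is therefore given for each gene. Graph clusters of all cells also split the ECs by library: the endothelial clusters with the most cells held 5981 Control and 1272 Dach1OE cells in the first and 15 and 4060 in the second, and another held 50 and 981. Cells of a subtype gate can thus differ between the libraries beyond the markers of the gate.

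In sinusoidal cells 1 of the 6 genes with enough UMIs differed by 1.5-fold or more, Vwf, with 8.72% of all tested genes past that mark there. Vwf was 7.06 CPM in Control against 60.1 CPM in Dach1OE sinusoidal cells, a log2 ratio of 3.09 (interval 2.71 to 3.47) that starts from a background level. F8 (-0.22), Tfpi (-0.26), Thbd (-0.22) and Tfpi2 (-0.16) were slightly lower, each with an interval below 0, and Procr was not apart (0.11, interval -0.20 to 0.40).

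Metaphyseal capillaries, the vessels in which Aplnr is part of the gating panel, had 4 of 7 genes past 1.5-fold (8.46% of all genes). Vwf was 9.20 and 128 CPM (log2 ratio 3.80, interval 3.29 to 4.36), again from a background level, and Plat was 57.4 and 97.6 CPM (0.76, 0.51 to 1.02). F8 was 126 and 65.5 CPM (-0.94) and Tfpi2 was 379 and 211 CPM (-0.84). Tfpi was 781 and 557 CPM (-0.49) and Thbd 345 and 286 CPM (-0.27), both lower beyond counting error and within 1.5-fold. Procr was 81.7 and 81.3 CPM.

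Arterial cells had 5 of 7 genes past the mark, with 18.6% of all genes. Vwf was 76.8 CPM in Control against 469 CPM in Dach1OE (log2 ratio 2.61, interval 2.30 to 2.94), while Tfpi2 (43.6 and 9.01 CPM, -2.28), F8 (27.0 and 8.74 CPM, -1.63), Tfpi (309.7 and 164 CPM, -0.91) and Thbd (207 and 119.6 CPM, -0.79) were lower. The F8 ratio rests on 31 and 32 UMIs and ends at a level that, per cell, was not above that of erythroid cells. The Tfpi2 ratio rests on 50 and 33 UMIs. Plat, highest in this subtype, was not apart (0.14, interval -0.15 to 0.44).

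Remodelling-bone ECs were the exception for Vwf. They had 778 CPM in Control and 743 CPM in Dach1OE, a log2 ratio of -0.07 (interval -0.21 to 0.07), while Vwf was past 1.5-fold in each of the 5 other subtypes with at least 50 UMIs. That contrast between subtypes was not tested. Only F8 (-1.95, from 41.5 to 10.8 CPM on 53 UMIs in all) and Thbd (-0.75) passed 1.5-fold there, 2 of 7 genes against 18.8% of all genes. The F8 level of Dach1OE rECs was, per cell, not above that of erythroid cells. Dach1 itself was 36.3 CPM in Control rECs, the highest of the Control subtypes, and 194 CPM in Dach1OE.

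Proliferating and tip-like cells each had 5 of 7 genes past 1.5-fold, with 10.4% and 13.7% of all genes. Vwf was higher in both (log2 ratios 2.65 and 3.07), and F8 (-1.41 and -1.86), Tfpi (-1.02 and -0.78) and Tfpi2 (-1.42 and -1.77) were lower in both. Plat was higher in proliferating cells (1.42) and not apart in tip-like cells (-0.11, interval -0.57 to 0.36), and Thbd passed 1.5-fold only in tip-like cells (-0.89, against -0.51 in proliferating cells). The difference between these subtypes was not tested. In lymphatic cells, 143 in Control and 53 in Dach1OE, Tfpi2 was 190.3 and 89.8 CPM (-1.08, interval -1.87 to -0.37), Thbd was 437 and 293 CPM (-0.58) and Tfpi was 1663 and 1233 CPM (-0.43). F8 was 155 and 161 CPM there and not apart (0.05, interval -0.56 to 0.64). ECs without a clear subtype resembled the whole, with Vwf at 32.0 and 238 CPM, F8 at 235 and 83.3 CPM and Plat at 20.3 and 40.7 CPM.

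**Figure D3:**
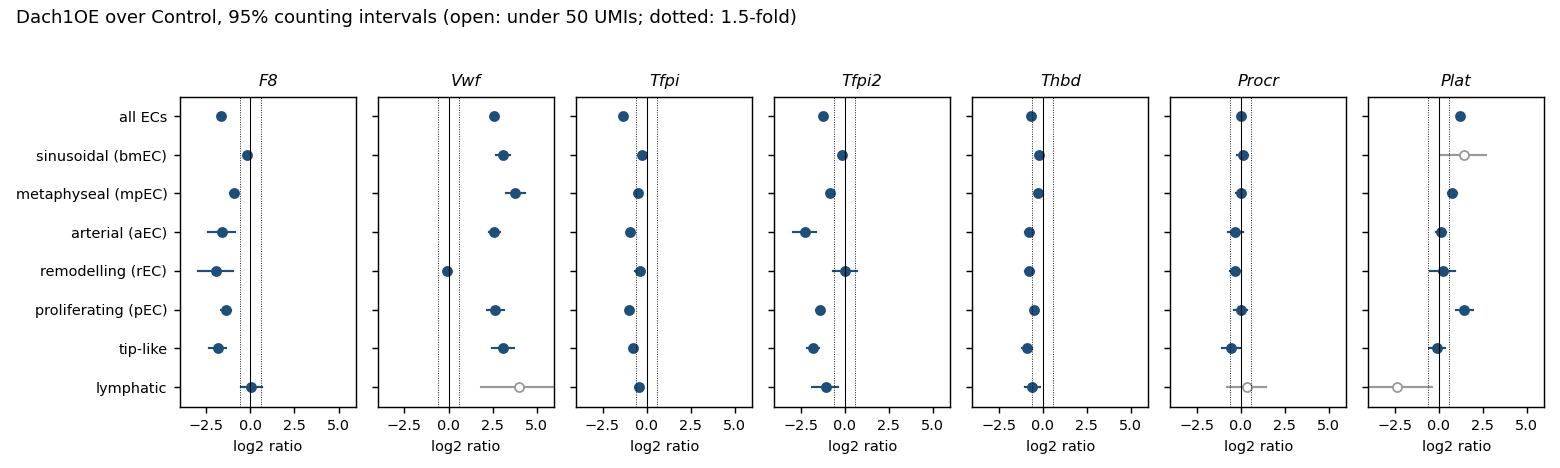
log2 ratio of each gene's level, Dach1OE over Control, in all ECs and in 7 gated subtypes, with 95% counting intervals; dotted lines mark 1.5-fold and open points rest on under 50 UMIs. Vwf lies right of the line in 5 subtypes with at least 50 UMIs and, as an open point, in lymphatic cells, and at -0.07 in remodelling cells, F8 and Tfpi lie closer to 0 in sinusoidal cells (-0.22 and -0.26) than over all ECs (-1.70 and -1.31), and Procr stays between the lines in every row.

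Cells of 2 mice can be partly separated by sex in each library, so each sex sets 1 mouse against 1 mouse. Among ECs with Xist and no UMI of 4 Y-linked genes (2956 Control, 2927 Dach1OE), Vwf was 35.2 and 231 CPM, and among those with a Y-linked UMI and no Xist (2239 and 2224) it was 24.2 and 246 CPM. F8 was 267.8 and 88.0 CPM in the first set and 283 and 81.7 CPM in the second. All 6 genes past 1.5-fold over all ECs were past it in the same direction in both sets. These cells are part of the ECs from which the 6 were called, so the sets are no independent check. The share of all genes that kept their call in both sets was not counted. Plat varied most, with 25.2 and 42.8 CPM in the first set (log2 ratio 0.76, interval 0.54 to 0.98) and 15.9 and 63.3 CPM in the second (1.99, 1.72 to 2.26). Tfpi also differed, with -1.09 in the first set and -1.57 in the second. The difference between the sets was not tested, and sex and mouse go together in it.

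Inside the subtypes, some differences were seen in both sets and others in a single set, of which examples follow. Vwf was higher in both sets in sinusoidal (log2 ratios 2.82 and 4.41) and proliferating cells (3.95 and 2.21, on 8 and 14 Control UMIs). Arterial Tfpi2 was lower in both, on few UMIs. The log2 ratio was -4.43 (interval -6.80 to -2.71) on 24 Control and 3 Dach1OE UMIs in the first set. In the second it was -1.95 (-3.23 to -0.65) on 11 and 13 UMIs. Both sets were under the minimum of 50 UMIs. Arterial F8 was -1.43 and -1.06, each with an interval that includes 0. Vwf in rECs was 705 and 734 CPM in the first set (log2 ratio 0.06) and 601 and 632 CPM in the second (0.07), so it was level in both. Metaphyseal Tfpi2 (-0.65 and -1.05) and F8 (-0.81 and -1.07) were past 1.5-fold in both. Plat in metaphyseal cells was 71.5 and 73.3 CPM in the first set (0.04, interval -0.39 to 0.46) and 51.0 and 124 CPM in the second. Plat in proliferating cells had a log2 ratio of 0.82 (interval 0.10 to 1.58) in the first set and of 3.55 in the second, the latter on 4 Control UMIs. F8 in rECs had 6 and 4 UMIs in the first set (-0.96, with an interval that includes 0) and 17 and 3 in the second (-3.09), and a single Control cell held 6 of its UMIs. Thbd in rECs was 352 and 159 CPM in the first set (-1.15) and 240.4 and 213 CPM in the second (-0.17, interval -0.78 to 0.44). Procr in rECs, within 1.5-fold over all of them, was past it in both sets (-0.77, interval -1.40 to -0.16, and -0.59, interval -1.27 to 0.09). Tfpi in tip-like cells was 552 and 517 CPM in the first set (-0.09, interval -0.38 to 0.19), and the second set held under 50 such cells in a library.

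Since Vwf is also a megakaryocyte gene, the 8 genes of the megakaryocyte panel were summed in ECs. All 8 had UMIs there, at 197 CPM in Control and 207 CPM in Dach1OE, against 43467 and 44232 CPM in megakaryocytes. ECs with a Vwf UMI carried the panel at 543 CPM in Control and 239 CPM in Dach1OE, and those without at 175 and 183 CPM. In ECs with no UMI of the panel the log2 ratio of Vwf was 2.49, beside 2.60 over all ECs. The part of megakaryocyte RNA in the Vwf difference was not tested. In megakaryocytes themselves Vwf was slightly lower in Dach1OE (log2 ratio -0.27, interval -0.47 to -0.08). The panels of the stromal classes that carry Plat were at 109 and 82.9 CPM in ECs for fibroblast or tendon cells and at 394 and 462 CPM for smooth muscle cells or pericytes, with all 8 markers of each detected, and their part in the Plat difference was not tested.

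Cells that the Scgb3a1-positive gate took were nearly all from Dach1OE (1576 cells against 13), so they were set beside sinusoidal cells of the same library. Both had similar depth, with medians of 2716.5 and 2656 UMIs. Vwf was 4.56-fold higher in the Scgb3a1-positive cells, 273.9 against 60.1 CPM. F8 was 5.20-fold lower in them (66.3 against 345 CPM), Tfpi2 3.31-fold lower (51.7 against 171 CPM) and Tfpi 2.58-fold lower (1198 against 3093 CPM). Thbd differed little (602 against 709 CPM), and Procr was not apart (35.9 and 43.1 CPM).

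Within the Dach1OE library, ECs with a detected Dach1 UMI were compared with those without. The former were deeper, with medians of 3434.5 and 2499 UMIs. CPM values scale for total UMIs but not for other differences between deep and shallow cells. A missing UMI does not show that a cell lacked Dach1. Over all these ECs, Vwf was 289 CPM with and 217 CPM without a Dach1 UMI, F8 was 48.4 and 111 CPM, and Tfpi was 735 and 1137 CPM. In sinusoidal cells the 119 with a Dach1 UMI had Vwf at 152 CPM and the 687 without at 39.6 CPM, a log2 ratio of 1.94 (interval 1.46 to 2.42). F8 was 208 and 376 CPM (-0.85). Tfpi was 2275 and 3275 CPM (-0.53), and Thbd was not apart (0.15, interval -0.02 to 0.32). Metaphyseal cells went the same way, with Vwf at 225 and 81.3 CPM (1.47) and Tfpi2 at 94.4 and 268 CPM (-1.51). Vwf was also higher with a Dach1 UMI in proliferating (0.56, interval 0.26 to 0.87) and tip-like cells (0.62, 0.30 to 0.95). In rECs the order of Vwf was reversed, 564 CPM with a Dach1 UMI and 879 CPM without (-0.64, interval -0.85 to -0.44), and Procr was 90.1 and 167 CPM (-0.89). In arterial cells Vwf was not apart (0.05, interval -0.09 to 0.19), and in Scgb3a1-positive cells it was 261 and 293 CPM (-0.16).

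**Figure D4:**
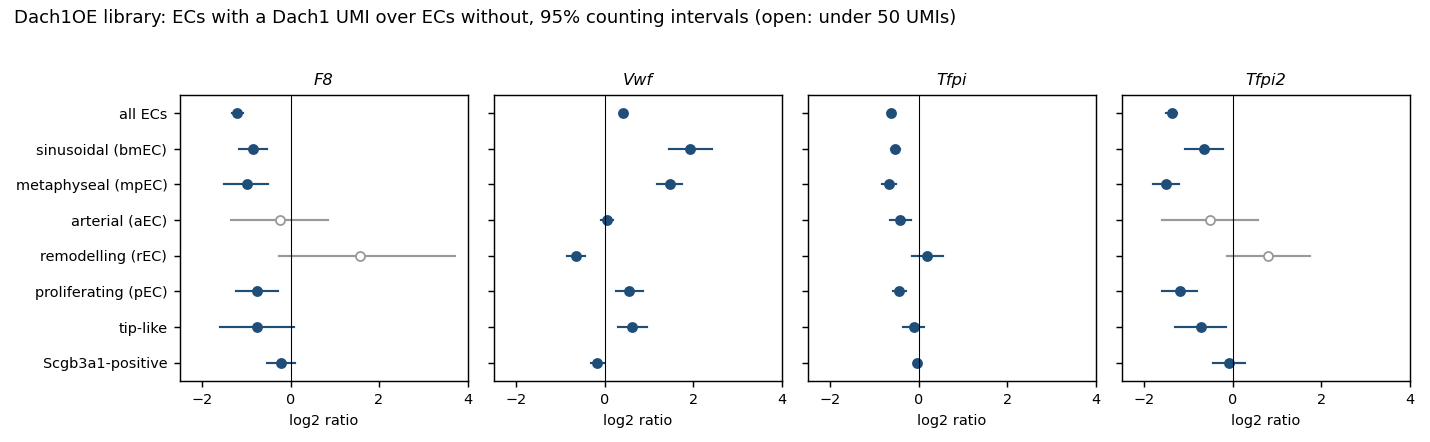
log2 ratio of F8, Vwf, Tfpi and Tfpi2 between Dach1OE ECs with and without a Dach1 UMI, over all ECs and in 7 gated subtypes, with 95% counting intervals; open points rest on under 50 UMIs. Vwf is higher with a Dach1 UMI in sinusoidal (1.94), metaphyseal (1.47), tip-like (0.62) and proliferating cells (0.56) and lower in remodelling cells (-0.64).

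The other genes of the pathway, a list of 45, were mostly within 1.5-fold. In ECs 29 of them had at least 50 UMIs, of which 4 were at least 1.5-fold higher in Dach1OE, 2 at least 1.5-fold lower and 23 within that range, beside 7.19% and 6.54% of all genes higher and lower. Their median log2 ratio was 0.07 beside 0.03 for all genes. Of the clotting factor genes, F10 (0.41 and 1.41 CPM on 13 and 45 UMIs, so that it reached the minimum through Dach1OE) and F13a1 (6.96 and 10.7 CPM) were past 1.5-fold at low levels, with no background level measured for either, F5 was within the range and 8 were under 50 UMIs. Selp, the P-selectin that is stored with von Willebrand factor in endothelial granules, was lower over all ECs (339.6 and 143 CPM, log2 ratio -1.25), opposite to Vwf. The pathway genes were not compared within subtypes or at equal weight of subtypes. Their ratios can therefore include the different share of each gate in the libraries. Genes that assemble or secrete clotting factors (Lman1, Mcfd2, Ggcx, Vkorc1, Vkorc1l1) were all within 1.5-fold. Gas6, a relative of protein S that binds TAM receptors and is not itself an anticoagulant, had been listed with the anticoagulants and was lower (142 and 93.5 CPM, -0.60). The 3 tested anticoagulant genes were within the range, among them Pros1, the cofactor of activated protein C (297.9 and 232 CPM, -0.36). All 7 tested fibrinolysis genes were within it, among them Plau, the urokinase-type plasminogen activator (180.4 and 159 CPM). The protease receptor gene F2rl1 (3.26 and 7.91 CPM, 1.28) and Nos3, the endothelial nitric oxide synthase (77.5 and 134 CPM, 0.79), were higher.

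**Figure D5:**
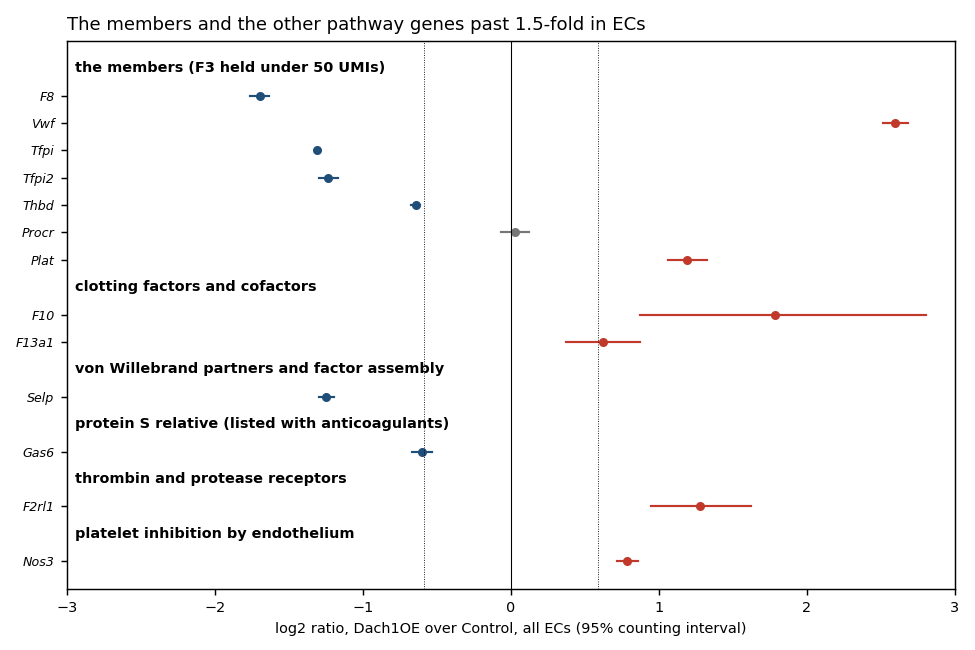
log2 ratio in all ECs, Dach1OE over Control, of the 7 members with at least 50 UMIs and of the other pathway genes past 1.5-fold, in groups, with 95% counting intervals; red and blue mark ratios past 1.5-fold (dotted lines) and grey a ratio within it. Of the pathway genes F10, F13a1, F2rl1 and Nos3 lie to the right and Selp and Gas6 to the left.

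Over 30 class and subtype points of the libraries, F8, Tfpi, Thbd and Tfpi2 ran together: Pearson's r of log2(CPM + 10) was 0.94 between F8 and Tfpi, 0.93 between Tfpi and Thbd, 0.85 between F8 and Thbd and 0.89 between Tfpi2 and each of F8, Tfpi and Thbd. Vwf stayed between -0.38 and 0.42 with all others. Points of a library share depth and mice, and they mix endothelial subtypes with classes outside the endothelium, so these values only describe. A high r therefore includes the contrast of ECs with other classes. Among the subtypes Tfpi2 led in metaphyseal cells, while F8, Tfpi and Thbd led in sinusoidal cells. The genes most like F8 among 11990 were Mrc1 (0.98), the mannose receptor of sinusoids, Il13ra2 and Dnase1l3 (both 0.97). Tfpi was most like Stab2 (0.98), Snx2 and Flt4 (both 0.97), and Stab2, Flt4 and Dnase1l3 belong to the sinusoidal gating panel. Thbd was most like Npr1 (0.97), Asah2 and B4galt4 (both 0.96), Tfpi2 like Chst7 (0.94) and Selenop (0.93), and Procr like Bnip2, Myo1c and Cav2 (all 0.93). Vwf was most like Trim24 (0.84), Slc30a1 (0.83) and Ehd4 (0.81), Plat like Col18a1 (0.92), Cdh13 (0.89) and Gprc5b (0.87), and F3 like Nova1 (0.98), Adgrg2 (0.97) and Osr2 (0.96).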

How the data were processed

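The deposited tables list, per cell and gene, reads and unique molecular identifier (UMI) counts, raw and after recursive substitution error correction (RSEC). According to the headers of the deposited files, the counts came from version 1.11 of the BD Rhapsody WTA pipeline (GRCm38, GENCODE vM19), included intronic reads and were not normalized. Whether reads were assigned by strand is not given in the sources used here. RSEC-adjusted counts were used, and mean depth was 1.51 reads per UMI in Control and 1.45 in Dach1OE.

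Cells were kept as in the report. A class needed at least 3 detected markers of its panel of 8 and 2 more than the next of 12 panels, which left 84.8% and 83.4% of cells gated. No doublet caller was run, and the margin sets aside cells with markers of several classes. EC subtypes were gated by the mean standardized log level of 8 panels (score of at least 0.3, 0.2 above the next, at least 2 markers detected). The thresholds of the gates were set after the data had been seen, and the members and lists were chosen with earlier results of these data known.

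For each class of each library UMIs were summed and scaled to CPM with exact Poisson intervals. Ratios have exact conditional binomial intervals, and shares have Clopper-Pearson intervals. A gene was called at 1.5-fold with at least 50 UMIs over both libraries. All 8 members are named, as are pathway genes that were called and, for each member, the 3 genes with the highest r over classes of at least 100 cells (genes of at least 1000 UMIs). Other pathway genes (F5, Plau, Pros1 and the assembly genes) are named in addition, chosen after their values were seen, and 1 gene of the highest r is not reported here. Python 3.11.15 with numpy 2.4.6 and scipy 1.17.1 was used, and edgeR 4.0.16 and DESeq2 1.42.0 gave alternative scaling factors. The ratios were tested on simulated data.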

Additional observations from a re-analysis of the deposited data

Results flagged for a closer look

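In 2 cases a member moved in opposite directions in ECs and in another cell class, with both counting intervals off 0. Vwf was higher in Dach1OE ECs (log2 ratio 2.60) and lower in Dach1OE megakaryocytes (-0.27, interval -0.47 to -0.08). Plat was higher in Dach1OE ECs (1.19) and lower in osteoblasts or osteocytes (-0.42, interval -0.71 to -0.13). With 1 library per group neither difference was tested.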

How the results depend on the processing

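No paired analysis was possible because each group has 1 library and no test was made. Equal weight of the subtypes changed the counts of members the most: 1 member in place of 2 was at least 1.5-fold higher in Dach1OE ECs (Vwf), and 2 in place of 4 were at least 1.5-fold lower (F8 and Tfpi2). With no minimum of UMIs the count of lower members was 5, by the addition of F3. Raw UMIs, TMM or DESeq2 scaling, the stricter filters and gate, graph clusters, cells of either sex, leaving out Scgb3a1-positive cells and, as settings added after the data had been seen, leaving out ECs with megakaryocyte-panel UMIs or cell indices in both libraries gave the counts in the report, as did the comparison of ECs with other cells under each setting run for it. The log2 ratio of Vwf ranged from 0.98 to 3.35, of F8 from -1.82 to -0.59, of Tfpi from -1.57 to -0.46, of Tfpi2 from -1.43 to -0.96, of Thbd from -0.82 to -0.46 and of Plat from 0.18 to 1.99, none of them with a change of sign. Cells under 10% mitochondrial UMIs gave 3.23 for Vwf. Procr lay between -0.15 and 0.13. The intervals cover counting error, and the spread between mice of the same sex cannot be seen with 1 library per group.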
